A study of Homo sapiens with 6 samples.

Results

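The expressed antisense RNA genes are the 136 genes that the count table of this series annotates as antisense and that had at least 100 counts in each of the 3 control libraries. They were selected on their control counts from 5583 antisense genes and 58735 genes in all, after small nucleolar RNA host genes had been left out by name, which removed 4. RNA was sequenced from 6 libraries of a human colorectal cancer cell line, 3 of control cells and 3 of cells in which CNOT7 was knocked down by stable short hairpin RNA (shRNA). The deposited labels give the genotype as CNOT7 control or CNOT7 knockdown, give the treatment as none for all libraries, and give SW480 as the line, while HCT116 is the line the paper gives for these data. The shRNA carried by each knockdown library is not stated, and neither is whether the libraries of a group came from separate cultures, so p-values measure only the spread between these libraries, which may be technical.

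An antisense RNA gene is transcribed from the strand opposite to another gene. Many such genes start beside the promoter of the opposite gene and run away from it, others start within its body, and some of their RNAs act on the neighbouring gene while others act elsewhere in the cell. CNOT7 is a catalytic subunit of the CCR4-NOT complex, which shortens the poly(A) tails of RNAs before their decay, and the comparison addresses which antisense RNAs change in level when it is depleted.

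The control libraries held 23788451 to 25982493 counts each and the knockdown libraries 27523812 to 29104872. The antisense genes took 0.180% to 0.186% of all counts in the control libraries and 0.201% to 0.207% in the knockdown libraries, while mitochondrial ribosomal RNA genes took 0.990% to 1.05% and 1.44% to 1.58%. The shares of all antisense genes (0.325% to 0.340% and 0.360% to 0.377%), lincRNA genes (0.415% to 0.421% and 0.465% to 0.472%) and sense-intronic genes (0.0316% to 0.0323% and 0.0353% to 0.0356%) were also higher in the knockdown libraries. The part of these shifts in the results below was not tested. The epithelial markers KRT8, KRT18, KRT19 and EPCAM averaged 216 to 2611 CPM over the 6 libraries. CPM are counts brought to the same sequencing depth, for these markers without TMM factors. The intestinal markers CDX2, CDH1 and VIL1 averaged 41.9, 28.6 and 26.4 CPM, although CDX1 and GPA33 were near 0, at 0.0298 and 0.314 CPM. The leukocyte markers PTPRC, CD68 and CD3E did not exceed 0.267 CPM. Of the fibroblast markers, COL1A1 averaged 8.79, PDGFRB 1.59 and COL1A2 0.113 CPM. Of the endothelial markers, VWF averaged 2.16, PECAM1 0.257 and CDH5 0.0685 CPM. All CPM given below include TMM factors. CNOT7 itself (ENSG00000198791) was 169, 191 and 176 CPM in control replicates 1, 2 and 3 and 43.4, 47.2 and 38.6 CPM in the knockdown replicates, a log2 fold change of -2.05 (standard error (SE) 0.0734, Benjamini-Hochberg adjusted p = 2.64e-12 over 17574 genes in the quasi-likelihood test of edgeR). Of 12 CCR4-NOT subunits tested, CNOT7, CNOT9 and CNOT3 fell and CNOT8, the other CAF1-type deadenylase, rose (log2 fold change 0.29, SE 0.0613, edgeR adjusted p = 0.00204).

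The 136 antisense genes lay on 23 chromosomes of GRCh38, 64 of them on the forward strand, and all 136 passed the filter on low counts, as the rule on control counts makes nearly certain. By position, 65 started within 1000 bases of the start of a gene on the other strand (head to head), 49 more shared exonic bases with an opposite-strand gene, 13 lay inside an opposite-strand gene without sharing exonic bases, and 9 had none of these arrangements. Over all positions, 100 genes shared exonic bases with an opposite-strand gene, with a median share of 6.21% and a maximum of 83.1%, reached by AC024909.2. The library kit named in the labels is not stated to mark the strand, so reads from an antisense gene and from the gene it overlaps cannot be told apart. In a bulk library, fewer cells making an RNA and less of that RNA per cell cannot be told apart either.

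Control levels spanned 4.42 to 159 CPM with a median of 7.62. Per kilobase of gene length, the levels ran from 0.0922 CPM for AC003681.1 to 65.4 ± 1.99 CPM (SD, n = 3) for AC099850.3, a short transcript opposite PRR11. Next in order came AL365181.3 at 38.7 ± 1.65, FGD5-AS1 at 31.0 ± 1.01, AL590666.2 at 27.5 ± 3.31 and AC007277.1 at 27.1 ± 1.69 CPM per kilobase (SD, n = 3). The control libraries of the first 4 of these genes did not overlap from one gene to the next, whereas AL590666.2 and AC007277.1 overlapped. AC007277.1 was the only one of these 5 that passed the test between groups. AC099850.3 and AL590666.2 share 30.2% and 46.7% of their exonic bases with opposite-strand genes, so their levels may include reads of those genes. The shares are 10.2%, 6.45% and 0% for AL365181.3, FGD5-AS1 and AC007277.1. At the edge of the selection, AL050341.2, TTN-AS1 and AL928654.1 had lowest control counts of 101, 102 and 102 and mean levels of 4.50, 5.61 and 4.73 CPM. The antisense genes AP002387.1, MALINC1 and HOXA-AS2 stayed just outside with a lowest count of 99 each and 4.52, 4.85 and 4.44 CPM. AP002387.1 was called higher in knockdown (log2 fold change 0.59, SE 0.134, edgeR adjusted p = 0.00346), whereas the other genes at this edge, inside or outside, were not called.

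With CNOT7 knockdown, 22 of the 136 antisense genes were higher, 10 were lower and 104 did not pass the test (edgeR adjusted p under 0.05, no minimum fold change). Among all genes tested, 13.3% were higher and 11.9% lower, against 16.2% and 7.35% of the antisense genes. The split between directions depended on the scaling. When the trend of the log ratios with abundance was removed by cyclic loess, 17 antisense genes were higher and 18 lower, so that 48.6% of those called were higher in place of 68.8%. The lower group also shrank to 5 genes without knockdown replicate 1. The median log2 fold change was 0.02, beside 0.00 over all genes, and the middle part of the distribution, between its quartiles, ran from -0.16 to 0.23. The knockdown and control libraries did not overlap for 62 antisense genes, or 45.6%, where 38.8% of all genes did not overlap. All 32 called genes were among the 62. Calls were retained for 16 of the 22 higher and 4 of the 10 lower genes in each of 12 refits with other tests, scalings and filters or without a library.

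**Figure D1:**
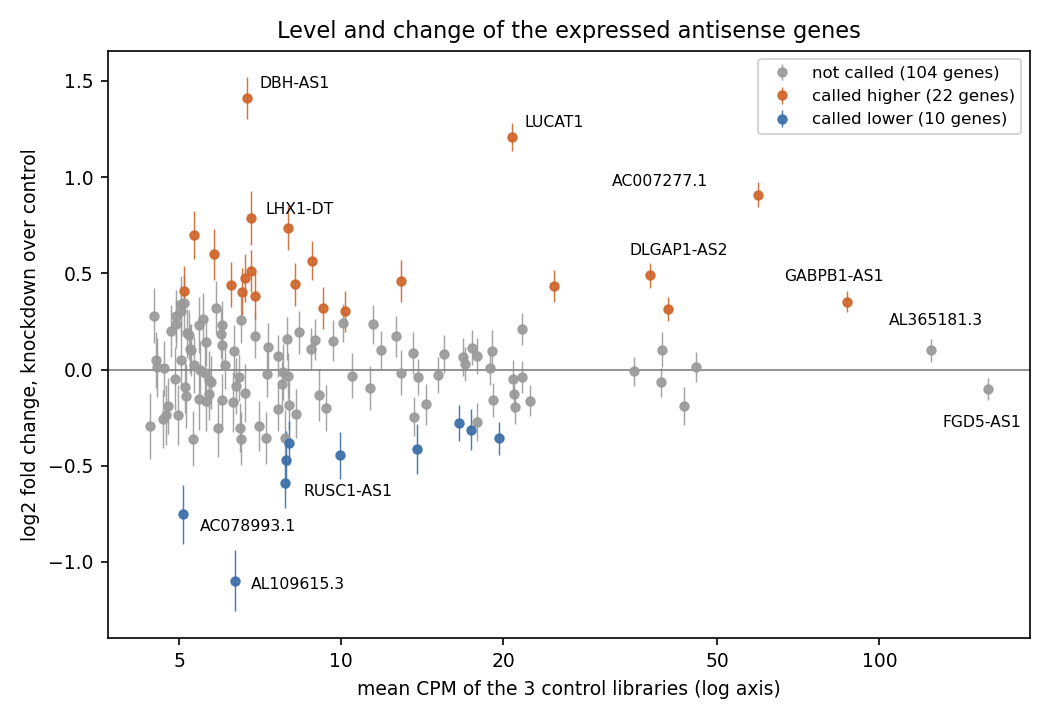
Each point is 1 of the 136 antisense genes, placed by its mean CPM in the 3 control libraries (log axis) and its fitted log2 fold change, with bars of 1 SE. DBH-AS1, LUCAT1 and AC007277.1 stand above 0.9 and AL109615.3 below -1, while most genes lie within 0.25 of 0 at every level.

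DBH-AS1, LUCAT1 and AC007277.1 showed the largest rises. DBH-AS1 (ENSG00000225756, chromosome 9, 133654586 to 133657313, reverse strand), which lies within DBH, the gene of dopamine beta-hydroxylase, was 7.59, 6.41 and 6.02 CPM in control replicates 1, 2 and 3 and 18.4, 17.2 and 17.7 CPM in the knockdown replicates. Every knockdown library held more than 2 times the level of every control library. The log2 fold change was 1.41 (SE 0.107, adjusted p = 4.65e-08 from edgeR). LUCAT1 (ENSG00000248323, chromosome 5, 91054834 to 91314547, reverse strand), a noncoding RNA whose name stands for lung cancer associated transcript, was 20.5, 20.4 and 21.3 CPM in the control libraries and 49.3, 45.6 and 48.8 CPM in the knockdown libraries. Its groups were far apart relative to their spread, with a log2 fold change of 1.21 (SE 0.0720, adjusted p = 2.99e-09 from edgeR), and it shares no exonic base with an opposite-strand gene. AC007277.1 (ENSG00000213981, chromosome 2, 170640374 to 170695374, reverse strand), annotated opposite the myosin gene MYO3B, went from 58.2, 63.5 and 56.5 CPM to 119, 107 and 109 CPM. This was a log2 fold change of 0.91 (SE 0.0649, adjusted p = 2.25e-08 from edgeR), and the groups did not overlap.

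A second tier of antisense genes rose by 0.46 to 0.79 on the log2 scale. LHX1-DT (ENSG00000277268), the divergent transcript that starts 124 bases from the homeobox gene LHX1, was 6.73, 7.14 and 6.50 CPM in control and 11.96, 9.10 and 14.0 CPM in knockdown libraries (log2 fold change 0.79, SE 0.139, edgeR adjusted p = 0.000477). The knockdown libraries differed among themselves by more than the controls but stayed above them. LINC00659 (0.73) and GSEC (0.70), an RNA named for a sequence that folds into G-quadruplexes, followed with the same separation. GSEC was 5.33, 5.25 and 5.39 CPM in control and 9.76, 7.65 and 8.53 CPM in knockdown libraries (SE 0.126, edgeR adjusted p = 0.000529). ZEB1-AS1 (ENSG00000237036), opposite the epithelial to mesenchymal transition factor ZEB1, was 5.68, 5.93 and 5.79 CPM in control and 7.98, 10.5 and 7.89 CPM in knockdown libraries, with a log2 fold change of 0.60 (SE 0.132, edgeR adjusted p = 0.00292). AL590560.1 (0.57), KIZ-AS1 (0.51), DLGAP1-AS2 (0.49), PAXIP1-AS2 (0.48) and AC116351.1 (0.46) completed the 12 largest rises by log2 fold change, and all 12 kept their call in each of the 12 refits. The remaining 10 rises lay between 0.30 and 0.44 and included HAGLR, of the HOXD cluster, and GABPB1-AS1. Of these 10, AC015712.2, MCM3AP-AS1, TSPEAR-AS2, AC139795.2, PCAT7 and TMEM161B-AS1 lost their call in at least 1 refit.

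AL109615.3, AC078993.1 and RUSC1-AS1 showed the largest falls. AL109615.3 (ENSG00000237686, chromosome 6, 43995723 to 44074652, reverse strand) was 7.28, 6.23 and 5.51 CPM in control and 2.59, 2.86 and 3.42 CPM in knockdown libraries. Every knockdown library was under every control library (log2 fold change -1.10, SE 0.159, edgeR adjusted p = 7.02e-05) and its knockdown counts were among the lowest of the 136 genes, at 73, 79 and 102. AC078993.1 (ENSG00000238178, chromosome X, 16152941 to 16170869, reverse strand) was 4.63, 4.90 and 5.71 CPM in control and 3.26, 2.83 and 2.95 CPM in knockdown libraries (log2 fold change -0.75, SE 0.153, edgeR adjusted p = 0.00152). RUSC1-AS1 (ENSG00000225855, chromosome 1, 155316863 to 155324176, reverse strand) was 7.82, 7.31 and 8.46 CPM in control and 5.32, 4.46 and 5.88 CPM in knockdown libraries (log2 fold change -0.59, SE 0.132, edgeR adjusted p = 0.00322). The groups of AC078993.1 and RUSC1-AS1 did not overlap either. OTUD6B-AS1, which starts 7 bases from OTUD6B and shares no exonic base with it, fell by 0.36 on the log2 scale (SE 0.0850, edgeR adjusted p = 0.00500), from 19.5, 20.5 and 18.9 CPM to 15.8, 15.2 and 14.9 CPM.

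The other 6 falls were less secure. CASC8 (log2 fold change -0.47) was 7.16, 6.58 and 9.89 CPM in control and 5.78, 5.44 and 5.88 CPM in knockdown libraries, and without control replicate 3 its log2 fold change was -0.27. Its edgeR adjusted p went from 0.0261 to 0.218 without that library and to 0.0666 without knockdown replicate 1. DLEU2 (-0.41), a noncoding RNA of the region deleted in lymphocytic leukemia, was 13.3, 15.0 and 13.2 CPM in control and 8.98, 13.1 and 9.10 CPM in knockdown libraries, so that knockdown replicate 2 almost touched the controls. Its edgeR adjusted p of 0.0277 rose to 0.0655 without control replicate 2, to 0.135 without knockdown replicate 1 and to 0.0906 without knockdown replicate 3. NUTM2A-AS1 (-0.44) and NUTM2B-AS1 (-0.31) share sequence, since 45.3% of the 50-base words of the former occur in the latter and 21.1% of those of the latter in the former, and reads from the shared stretches cannot be told apart. The call of NUTM2A-AS1 was lost without knockdown replicate 1 (edgeR adjusted p = 0.0669). That of NUTM2B-AS1 was lost without control replicate 2 (0.169), knockdown replicate 1 (0.0524) or knockdown replicate 3 (0.135). AC098864.1 (-0.38) lost its call without control replicate 1, knockdown replicate 1 or knockdown replicate 3 and with DESeq2 (adjusted p 0.0534 to 0.0690), and AC005034.3 (-0.28) when any library except knockdown replicate 2 was left out and with DESeq2 (0.0504 to 0.115). A share over 20% of 50-base words in other genes was also found for AC074117.1 and LINC00894, which were not called.

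**Figure D2:**
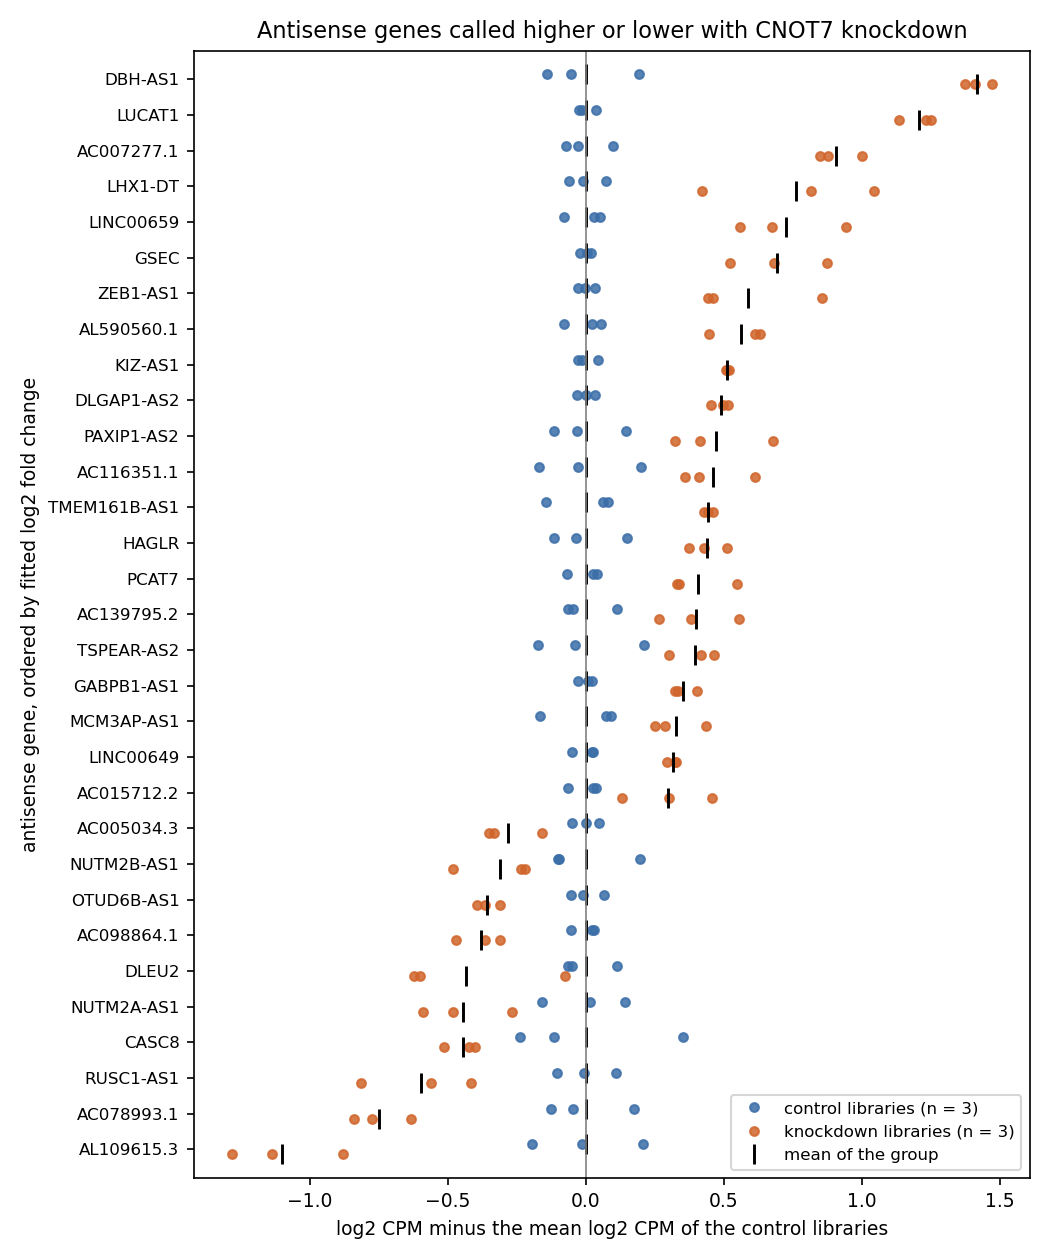
Each row is 1 of 31 called antisense genes, and each point 1 library, as log2 CPM minus the mean log2 CPM of the 3 control libraries, with black bars for group means. The 21 higher genes shown stand to the right of their controls and the 10 lower genes to the left, with the narrowest gap for DLEU2.

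Promoter sequences are shown for 4 of the genes, chosen to set a rise, a fall and a gene that was not called beside each other. They are RefSeq promoters, 250 bases before to 50 after the start, on GRCh38.p14, reverse strand, at chr5:91314353-91314652 for LUCAT1, chr10:31320398-31320697 for ZEB1-AS1, chr1:155324127-155324426 for RUSC1-AS1 and chr3:14948392-14948691 for FGD5-AS1. Capitals mark matches on either strand to the GC box (GGGCGG), the CCAAT box (CCAAT), the TATA box (TATAAA) and the antioxidant response element core (TGACNNNGC), and no marked matches overlap.

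LUCAT1: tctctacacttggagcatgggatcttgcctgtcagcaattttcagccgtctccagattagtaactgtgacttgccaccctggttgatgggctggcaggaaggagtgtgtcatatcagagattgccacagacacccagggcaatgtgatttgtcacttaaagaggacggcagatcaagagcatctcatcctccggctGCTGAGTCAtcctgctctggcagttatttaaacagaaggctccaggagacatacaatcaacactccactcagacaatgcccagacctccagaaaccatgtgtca
ZEB1-AS1: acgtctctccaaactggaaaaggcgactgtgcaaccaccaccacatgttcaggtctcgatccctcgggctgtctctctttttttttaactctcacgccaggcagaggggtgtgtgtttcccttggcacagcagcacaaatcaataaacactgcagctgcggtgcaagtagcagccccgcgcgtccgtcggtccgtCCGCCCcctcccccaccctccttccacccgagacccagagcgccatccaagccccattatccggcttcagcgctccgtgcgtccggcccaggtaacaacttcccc
RUSC1-AS1: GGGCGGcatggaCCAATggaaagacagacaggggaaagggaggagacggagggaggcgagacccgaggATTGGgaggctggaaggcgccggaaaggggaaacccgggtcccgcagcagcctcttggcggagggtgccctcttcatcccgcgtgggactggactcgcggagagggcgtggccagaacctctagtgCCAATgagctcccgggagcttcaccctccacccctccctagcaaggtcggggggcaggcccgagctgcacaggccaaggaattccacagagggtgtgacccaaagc
FGD5-AS1: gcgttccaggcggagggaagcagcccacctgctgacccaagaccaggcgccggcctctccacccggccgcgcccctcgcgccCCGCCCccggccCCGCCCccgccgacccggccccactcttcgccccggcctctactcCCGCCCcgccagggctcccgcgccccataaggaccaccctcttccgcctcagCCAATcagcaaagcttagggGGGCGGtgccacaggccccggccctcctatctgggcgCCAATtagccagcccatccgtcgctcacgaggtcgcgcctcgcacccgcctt

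LUCAT1 differed from the others in this window. It held 3 CG dinucleotides, no GC box, CCAAT box or TATA box, and a single match to the antioxidant response element core, a motif that was added to the search after this sequence had been seen. FGD5-AS1 held 32 CG dinucleotides, 4 GC boxes and 2 CCAAT boxes, RUSC1-AS1 17 CG dinucleotides, 1 GC box and 3 CCAAT boxes, and ZEB1-AS1 20 CG dinucleotides and 1 GC box. Of the 61 antisense genes with a RefSeq promoter, 54.1% held a GC box, 39.3% a CCAAT box, 8.20% a TATA box and 19.7% the antioxidant response element core, against 45.0%, 34.6%, 11.5% and 13.3% of all 35116 promoters. The RefSeq start lay within 200 bases of the GENCODE start for 43 of the 61, including 145 bases away for LUCAT1. Of these 43, 67.4% held a GC box, 37.2% a CCAAT box, 4.65% a TATA box and 14.0% the antioxidant response element core. A match in these letters is a description and not a bound site.

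Of a list of 32 antisense RNAs with described roles, 15 belonged to the 136 genes, and 4 of the 15 passed the test, where 25.2% of all genes tested were called. KCNQ1OT1, which silences neighbouring imprinted genes on the paternal chromosome, was 46.9, 48.3 and 41.9 CPM in control and 49.03, 42.5 and 46.8 CPM in knockdown libraries (log2 fold change 0.01, SE 0.0756). Its groups overlapped, as did those of THAP9-AS1, HCG18, DHRS4-AS1 and LOXL1-AS1, whose log2 fold changes lay between -0.07 and 0.10. HOTAIRM1, of the HOXA cluster, was 10.7, 9.54 and 9.97 CPM in control and 11.99, 11.5 and 12.3 CPM in knockdown libraries (log2 fold change 0.24, edgeR adjusted p = 0.0855), although the groups did not overlap. MCM3AP-AS1, which was called, was 9.69, 8.21 and 9.82 CPM in control and 10.96, 12.5 and 11.2 CPM in knockdown libraries (log2 fold change 0.32, SE 0.109, edgeR adjusted p = 0.0389), and its adjusted p went to between 0.0536 and 0.145 when any 1 of the 6 libraries was left out. FGD5-AS1, the most abundant of the 136 genes by CPM, was 157, 165 and 155 CPM in control and 142, 160 and 143 CPM in knockdown libraries. Its log2 fold change of -0.10 (SE 0.0589) did not pass the test (edgeR adjusted p = 0.231), but it did without knockdown replicate 2 (0.0357) and with a replicate block.

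Position was compared next. Of the 65 head-to-head genes, 9 (13.8%) were higher and 6 (9.23%) lower. Of the 49 others that shared exonic bases with an opposite-strand gene, 8 (16.3%) were higher and 2 (4.08%) lower. These shares stand beside 13.3% and 11.9% of all genes tested. Of the 13 genes inside an opposite-strand gene without shared exonic bases, 1 was higher (DLGAP1-AS2) and 1 lower (AC005034.3), with a median log2 fold change of -0.18. Over all positions, 34 genes lay inside an opposite-strand gene, and these include DBH-AS1 and KIZ-AS1, which were higher. The 9 genes in none of these arrangements, which include LUCAT1 and AC007277.1, held 4 rises and 1 fall, with a median of 0.34. Among the 34 genes that shared no exonic base with any gene, 7 were higher and 3 lower, with a median of 0.12. Some of these, such as DLGAP1-AS2, lie inside an opposite-strand gene. Whether unspliced reads of that gene were counted on them was not tested. Differences between positions were not tested. The other antisense genes tested, which include the 4 left out by name, held 54 rises (5.30%) and 19 falls (1.87%) among 1018 (median 0.09). The 893 lincRNA genes held 116 (13.0%) and 44 (4.93%), with a median of 0.16. Both sets were lower in control level, at medians of 0.805 and 1.01 CPM against 7.62 CPM for the 136. Their median SEs were 0.329 and 0.299 against 0.122, so equal changes pass the test less often among them.

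Of the 61 antisense genes named after a sense gene by -AS and a number, 58 could be compared with that gene. The fitted log2 fold changes had the same sign in 25 pairs and opposite signs in 33. In 4 pairs both were called higher, in none both lower, in 1 the calls were opposite, in 8 the antisense gene alone was called, in 9 the sense gene alone, and in 36 neither. Over all 295 such pairs tested, 157 had the same sign and 138 opposite signs, 10 were both called higher, 3 both lower and 1 in opposite directions, while the antisense gene alone was called in 21, the sense gene alone in 72 and neither in 188. Across the 58 pairs, which share the 6 libraries and overlapping reads, Pearson's r of the log2 fold changes was 0.38 and Spearman's rho 0.12, and without the pair of DBH-AS1 these were 0.14 and 0.07.

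The pairs that rose together included DBH-AS1 with DBH, KIZ-AS1 with the centrosomal gene KIZ, and TSPEAR-AS2 with TSPEAR. In each of these, the antisense gene lies inside the body of the sense gene. DBH was 3.77, 2.84 and 3.07 CPM in control and 7.34, 6.45 and 8.46 CPM in knockdown libraries (log2 fold change 1.197, SE 0.153, edgeR adjusted p = 1.98e-05), close to the change of DBH-AS1. KIZ rose from 220.1, 241 and 229 CPM to 278, 291 and 266 CPM (log2 fold change 0.28, SE 0.0549, edgeR adjusted p = 0.00126), and KIZ-AS1 from 6.73, 7.01 and 6.66 CPM to 9.69, 9.68 and 9.74 CPM (0.51, SE 0.107, edgeR adjusted p = 0.00193). The groups of both genes were apart. TSPEAR changed by 0.89 and TSPEAR-AS2 by 0.38. The antisense and sense exons shared 5.52% of the antisense exonic bases for DBH-AS1, 0.679% for KIZ-AS1 and 0.529% for TSPEAR-AS2. Whether reads from unspliced sense RNA were counted on these antisense genes was not tested. Same signs were found in 157 of all 295 pairs tested, which were not split by position. Of the 9 pairs with the antisense gene inside the sense gene, 8 had the same sign, against 17 of the other 49. In none of those 49 were both genes called higher. The 8 include DLGAP1-AS1 and DLGAP1-AS2, which share the sense gene DLGAP1. That gene had only 11 to 32 counts per library and was not called (edgeR adjusted p = 0.0841). TSPEAR-AS2 lost its call without control replicate 2 or 3 or knockdown replicate 1 or 2.

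**Figure D3:**
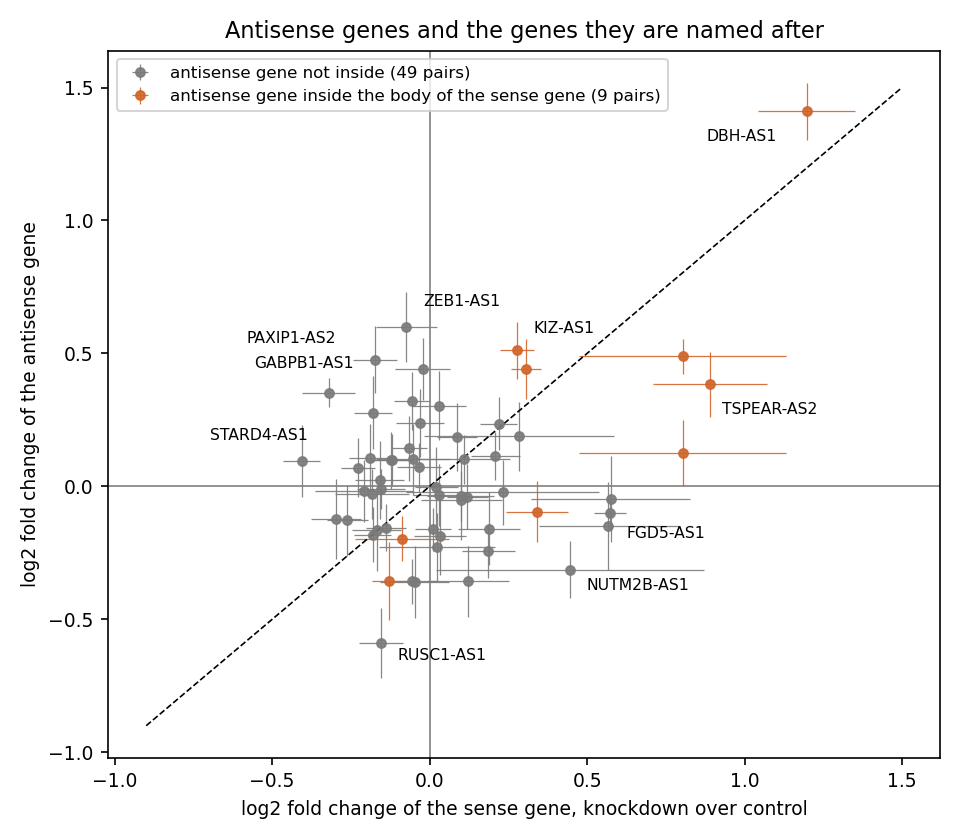
Each point is 1 of 58 pairs, with the log2 fold change of the sense gene across and of the antisense gene upward, bars of 1 SE, and a dashed line where both are equal. The 9 pairs with the antisense gene inside the sense gene are orange, and 4 of them lie at the upper right with both genes called higher.

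The difference in change between the 2 genes of a pair was tested on the log2 ratio of antisense to sense CPM. By limma no pair passed an adjusted p of 0.05 among 295 tested, of which 58 are the pairs described here. At an unadjusted p under 0.05 there were 12 of the 58 (54 of all 295). An edgeR test on the counts of both genes together, chosen after the data had been seen, called 8 of the 58, 6 with the ratio higher and 2 with it lower in knockdown, where 9.83% of all 295 pairs were called. PAXIP1-AS2, ZEB1-AS1 and FGD5-AS1 also passed by limma when every gene had to have at least 10 counts in every library. The pairs are named below because this test called them.

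In GABPB1-AS1 and GABPB1, a subunit gene of the GABP transcription factor, the changes were opposite and both were called. GABPB1-AS1 (ENSG00000244879, chromosome 15, 50354959 to 50372202) was 85.3, 87.4 and 88.3 CPM in control and 109, 115 and 109 CPM in knockdown libraries (log2 fold change 0.35, SE 0.0555, edgeR adjusted p = 0.000156). GABPB1 was 25.4, 28.8 and 27.6 CPM in control and 22.4, 23.2 and 19.98 CPM in knockdown libraries (-0.32, SE 0.0843, edgeR adjusted p = 0.00961). Neither gene's groups overlapped, and the log2 ratio rose by 0.67 (SE 0.137, adjusted p = 0.000249 by edgeR and 0.154 by limma). The starts of both genes lie 449 bases apart.

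In FGD5-AS1 and FGD5, a guanine nucleotide exchange factor gene, the sense gene rose and the antisense gene was not called. FGD5 was 139, 138 and 135 CPM in control and 206, 202 and 205 CPM in knockdown libraries (log2 fold change 0.57, SE 0.0510, edgeR adjusted p = 3.32e-07), so the log2 ratio fell by 0.68 (SE 0.122, adjusted p = 3.49e-05 by edgeR and 0.0697 by limma). ZEB1-AS1 and PAXIP1-AS2 showed the converse. ZEB1 was 21.4, 24.7 and 24.9 CPM in control and 22.0, 25.5 and 19.9 CPM in knockdown libraries, overlapping groups with a log2 fold change of -0.07 (SE 0.0968), while the ratio of ZEB1-AS1 to ZEB1 rose by 0.67 (SE 0.164, adjusted p = 0.00255 by edgeR and 0.0644 by limma). PAXIP1, a gene of chromatin and the DNA damage response, was 62.0, 66.0 and 62.4 CPM in control and 54.5, 61.8 and 52.6 CPM in knockdown libraries (-0.17, SE 0.0696), and the ratio of PAXIP1-AS2 to PAXIP1 rose by 0.65 (SE 0.159, adjusted p = 0.00252 by edgeR and 0.0644 by limma). PAXIP1 itself passed the test without knockdown replicate 2 (edgeR adjusted p = 0.00827).

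The other 4 ratios were nearer the threshold by edgeR, and their adjusted p by limma ran from 0.162 for C1RL-AS1 to 0.265 for KTN1-AS1. STARD4, a gene of cholesterol transport, fell by 0.41 on the log2 scale (edgeR adjusted p = 7.07e-05) while STARD4-AS1, at 5.76, 7.14 and 6.02 CPM in control and 7.45, 5.73 and 6.98 CPM in knockdown libraries, overlapped between groups. The ratio of STARD4-AS1 to STARD4 rose by 0.50 (SE 0.159, adjusted p = 0.0350 by edgeR). KTN1-AS1 with KTN1, the kinectin gene, and TMEM161B-AS1 with TMEM161B each gave an adjusted p of 0.0486 by edgeR, with ratio changes of 0.46 in both. C1RL-AS1 with the complement-related gene C1RL gave a fall of 0.43 (SE 0.148, adjusted p = 0.0486 by edgeR). Neither C1RL-AS1 nor C1RL passed the test alone. TMEM161B-AS1 rose by 0.44 (SE 0.116, edgeR adjusted p = 0.00962) from 6.58, 6.49 and 5.63 CPM to 8.37, 8.44 and 8.56 CPM, and its call was lost without control replicate 3.

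**Figure D4:**
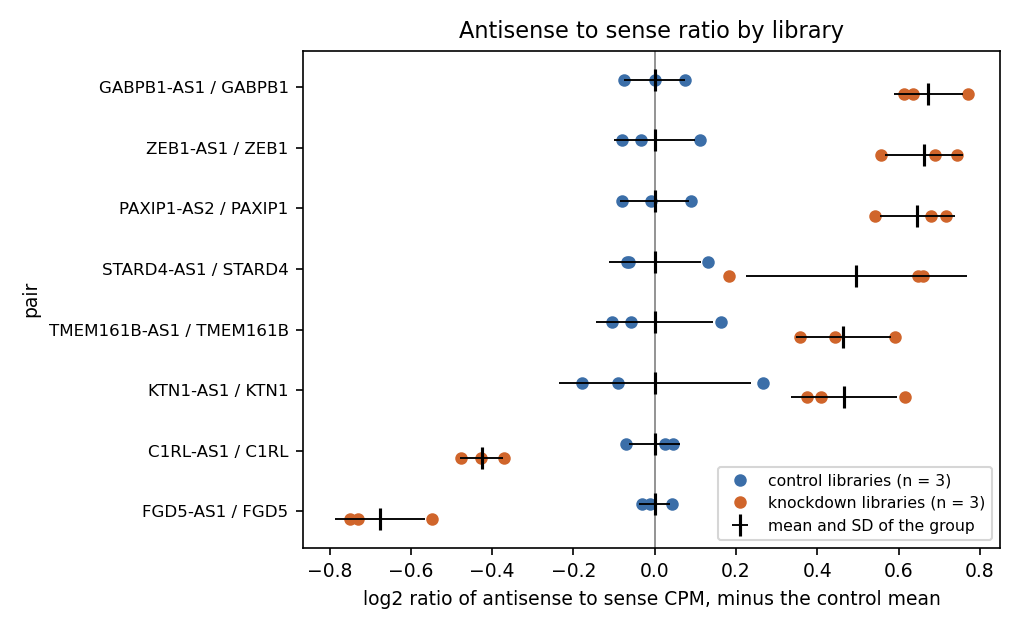
Each point is the log2 ratio of antisense to sense CPM in 1 library for the 8 pairs called by edgeR on both genes, minus the control mean, with bars of 1 SD (n = 3). The 3 knockdown libraries lie to one side of the 3 control libraries in all 8 pairs, closest for STARD4-AS1 and KTN1-AS1.

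Since most antisense genes carry no sense name, each was also set beside the nearest gene on the opposite strand. Where several genes were equally near, as when more than 1 overlapped, the one with the highest mean counts over the 6 libraries was taken. The gene taken was tested for 132 of the 136, and 124 of the 136 overlapped a gene on that strand. The signs of the log2 fold changes matched in 76 of the 132, both were called higher in 10, both lower in 4, and they were called in opposite directions in 2, GABPB1-AS1 with GABPB1 and HAGLR (0.44) with HAGLROS (-0.51). Pearson's r over the 132, which share libraries and reads, was 0.55 and Spearman's rho 0.37. Nearest neighbours of other genes were not counted, so these numbers have no background beside them. The correlations were not recomputed without DBH-AS1 and DBH. The 10 that rose together include the pairs named above and LHX1-DT with LHX1, AC007277.1 with MYO3B and LUCAT1 with ADGRV1. LHX1 had 673, 590 and 642 counts in control and 1311, 1203 and 1505 counts in knockdown libraries (log2 fold change 0.87, SE 0.0744, edgeR adjusted p = 2.16e-07). LHX1 and LHX1-DT do not overlap. ADGRV1 was near the threshold and low, with 14, 19 and 11 counts in control and 31, 35 and 29 counts in knockdown libraries (0.89, edgeR adjusted p = 0.0499). The 4 that fell together were AL109615.3 with C6orf223 (-0.42), AC078993.1 with MAGEB17 (-0.55), AC098864.1 with the teneurin gene TENM3 (-0.66), and RUSC1-AS1 with FDPS, a mevalonate pathway enzyme (-0.45, SE 0.0611, edgeR adjusted p = 3.50e-05). RUSC1-AS1 thus has an overlapping neighbour that fell. RUSC1, the gene it is named after, also overlaps it. RUSC1 was 45.1, 42.0 and 48.4 CPM in control and 40.4, 39.9 and 41.5 CPM in knockdown libraries and did not pass the test (-0.15, SE 0.0704). RUSC1-AS1 shares 31.0% of its exonic bases with opposite-strand genes, and AC078993.1 shares 40.8%.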

How the data were processed

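Gene expression was measured by RNA sequencing of 6 libraries from total RNA extracted with TRIzol. The authors deposited raw counts per gene for each library, without normalization, and the submitters' processing notes name fastp, HISAT2 2.0.5 and featureCounts 1.5.0-p3 on GRCh38. The strand setting and the treatment of reads that fall on several genes are not given in the sources used here. All 58735 gene identifiers, positions and lengths matched GENCODE release 29.

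Counts were filtered with filterByExpr (17574 genes left), normalized with TMM and compared between groups with edgeR 4.0.16 (glmQLFit and glmQLFTest) in R 4.3.3. The threshold was a Benjamini-Hochberg adjusted p of 0.05 over all genes. Ratios of antisense to sense CPM, with a prior count of 0.5, were tested with limma 3.58.1 over 295 pairs. The antisense genes and lists were chosen with earlier results of these data known. By the rule on named genes, the text names CNOT7, up to 12 rises and 12 falls, the 5 most abundant per kilobase, 3 genes on each side of the count threshold, and genes from a list with described roles. Genes named from the edgeR ratio test, as nearest neighbours or for 50-base words shared with other genes were chosen after their values were seen.

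Alternatives were DESeq2 1.42.0, RLE factors, no filter, 10 counts in every library, cyclic loess, a replicate block, each library left out in turn, and other membership limits. The fits were tested on simulated data. The submitters' notes also name DESeq2 1.20.0, whose output was not used. Promoters came from RefSeq. 1 called antisense gene is not reported here.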

Additional observations from a re-analysis of the deposited data

How the results depend on the processing

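With 3 libraries in each group, changes of low-count genes have wide errors, and the cause of each shift below was not tested. The replicate numbers were not taken as pairs, since they are not stated to pair libraries. Deviations of same-numbered libraries correlated at 0.0228, 0.153 and -0.0153, and those of differently numbered libraries at -0.151 to 0.132. With a replicate block, 28 antisense genes were higher and 18 lower, 3202 of all genes were higher and 3306 lower, and no ratio was called by limma. Cyclic loess gave 18 lower antisense genes and a median log2 fold change of -0.044. Membership at 50 control counts gave 258 genes, 31 higher and 16 lower. At 200 control counts there were 52 genes, 9 higher and 5 lower, so these counts move with the size of the set. A mean of at least 100 counts over all 6 libraries gave 168 genes with a median of 0.0689. That mean includes the knockdown libraries, so genes high only there can enter, which by itself raises the median. The 34 genes without shared exonic bases gave 7 higher, 3 lower and a median of 0.12. A log2 fold change of at least 0.5 left 9 higher and 3 lower. Leaving out 1 library gave 5 to 11 lower antisense genes and 1367 to 2219 lower genes overall. Pairs called were 2 higher and 1 lower with 10 counts in every library, and 6 and 2 with edgeR on both genes. Same-direction pairs were 76 of 132 by nearest gene and 8 of 15 without shared bases. The plain difference of fold changes gives no count of calls. For single named genes, 28 refitted values no longer passed the threshold and 7 newly passed. No called gene changed sign, whereas 7 genes that were not called did in some refits, namely KCNQ1OT1 (-0.05 to 0.07), AL590666.2, THAP9-AS1, DHRS4-AS1, MALINC1, ZEB1 and OTUD6B.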
